A study of Mus musculus with 8 samples.

Results

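Non-homologous end joining was followed through 8 genes chosen by name, Xrcc4, Lig4, Nhej1, Xrcc6, Xrcc5, Prkdc, Dclre1c and Trp53bp1, out of 23235 gene symbols in the deposited expression values. Xrcc4 was included because its level rises from LZ to PD in WT, and the other 7 genes are its partners in the same pathway. The WT values of Xrcc4 therefore chose it, so every Xrcc4 comparison that uses a WT group is given as a description without a test, and counts of called genes in those comparisons are over the 7 partners. All 8 genes were above 1 FPKM (length- and depth-scaled fragments) in every library. None was therefore kept through 1 group alone.

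Non-homologous end joining reseals a DNA double-strand break by holding the broken ends together and ligating them with little or no homology. The Ku heterodimer, encoded by Xrcc6 (Ku70) and Xrcc5 (Ku80), binds the ends and recruits the kinase DNA-PKcs, encoded by Prkdc, which activates the nuclease Artemis, encoded by Dclre1c. The ends are then sealed by DNA ligase IV, encoded by Lig4, with its scaffold XRCC4 and the related factor XLF, encoded by Nhej1. Trp53bp1 encodes 53BP1, a chromatin-bound factor that limits the resection of broken ends. In meiotic prophase, programmed breaks are resected and repaired mainly by homologous recombination, which competes with end joining for the same ends.

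RNA was sequenced from spermatocytes of WT mice and of Cnot4-null mice (Cnot4 fl/fl;Stra8-Cre), all male and C57BL/6, and the methods give an age of 6 weeks. CNOT4 is a ubiquitin ligase of the CCR4-NOT complex, which shortens mRNA poly(A) tails, and Stra8-Cre deletes the floxed gene in male germ cells from the spermatogonial stage on. Cells were sorted by Hoechst and propidium iodide fluorescence into leptotene plus zygotene (LZ) and pachytene plus diplotene (PD) spermatocytes, the earlier and later parts of meiotic prophase. Each of the 4 groups had 2 libraries, described by the authors as biological duplicates. Because these are bulk values, fewer cells of a type and less RNA per cell cannot be told apart.

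The 8 libraries are described first. Duplicates had Spearman correlations of 0.941 (LZ) and 0.968 (PD) in WT and 0.947 (LZ) and 0.892 (PD) in Cnot4-null over 15899 genes above 1 FPKM in at least 1 library, so the Cnot4-null PD duplicates stood farthest apart. Cnot4 itself was at 36.0 and 34.9 FPKM (LZ) and 76.6 and 73.1 (PD) in WT, against 43.2 and 34.6 (LZ) and 65.9 and 53.5 (PD) in Cnot4-null. A level over all exons does not show the loss of the floxed exon, so it does not check the genotype labels. Cnot4 was not called between genotypes at PD (-0.33, adjusted p = 0.192) or under quantile normalization (-0.21, adjusted p = 0.306), though it was after rescaling to a common median (-1.75, adjusted p = 0.000506). PD spermatocyte markers separated the stages, all 10 being called higher at PD in WT, where 21.6% of all genes were. Between genotypes at PD, 0 were called higher and 2 lower in Cnot4-null, beside 41.6% and 11.5% of all genes. All 10 were called lower after rescaling, where 40.1% of all genes were. Their summed level (10 genes, led by Ldhc) was 267 and 367 FPKM (LZ) and 12600 and 11700 (PD) in WT, against 285 and 121.5 (LZ) and 5964 and 2102 (PD) in Cnot4-null.

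Markers of other cells moved with the Cnot4-null PD libraries. The counts below stand beside all 15899 genes, of which 41.6% were called higher in Cnot4-null than in WT at PD and 11.5% lower. All 8 Leydig cell markers were in the values, and 7 of them were called higher in Cnot4-null than in WT at PD (limma, adjusted p under 0.05). Of these, Hsd3b1, Lhcgr and Hsd17b3 were above 1 FPKM in Cnot4-null PD alone, so they passed the filter only through the group where they were high. The 8 markers summed to 10030 and 22230 FPKM in Cnot4-null PD, against 116.7 and 7.83 in WT PD and at most 19.0 in the LZ libraries. Insl3 was the most abundant, at 9669 and 21610 FPKM in the Cnot4-null PD libraries. All 7 peritubular myoid markers were called higher, with sums of 277 and 763 FPKM against 19.3 and 2.62, led by Dcn. Of these, Myh11, Des and Cnn1 were also above 1 FPKM in Cnot4-null PD alone, so their calls rest on the group that kept them. All 8 spermatid markers were called higher, with sums of 16030 and 7551 against 425 and 273, led by Prm1. The spermatid sums also reached 1846 and 1540 in WT LZ, and 4067 and 725 in Cnot4-null LZ.

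Spermatogonial markers were at 593 and 567 FPKM (LZ) and 19.3 and 13.1 (PD) in WT, against 383 and 525 (LZ) and 307 and 390 (PD) in Cnot4-null (8 genes, led by Uchl1), and all 8 were called higher in Cnot4-null at PD. The LZ marker list summed to 1286 and 1593 FPKM (LZ) and 1141 and 1195 (PD) in WT, against 2913 and 1604 (LZ) and 900.4 and 546 (PD) in Cnot4-null, led by Sycp3. Of its 10 genes, 5 were called higher and 3 lower at PD, but 2 and 4 under quantile normalization and 4 and 5 after rescaling to a common median. Stra8, expressed at meiotic entry and raised most of the 5, was at 228 and 149 FPKM in Cnot4-null PD against 8.70 and 6.47 in WT PD. The 3 called lower were Spo11, Hormad1 and Sycp3, and Spo11 was at 56.6 and 35.2 against 134 and 147. In WT, Spo11 was called higher at PD than at LZ (limma log2 fold change 2.69, adjusted p = 0.00159). Sycp3 was not called between the WT stages (0.05, adjusted p = 0.957), so the sum it led says little about LZ cells. Sertoli cell markers summed to 140.1 and 262 FPKM in Cnot4-null PD against 13.6 and 27.6 in WT PD, and to 167 and 136 in WT LZ and 129.9 and 96.7 in Cnot4-null LZ. Of the 10 listed, 7 were tested and 4 called higher, in a contrast where 41.6% of all genes were. Gata4, among the 4, was above 1 FPKM in Cnot4-null PD alone. Clu, which led in both PD groups, and Ctsl were also among the 4. Amh and Fshr were listed at 0 in WT PD and reached at most 0.129 and 0.154 in any library. Macrophage markers summed to 37.9 and 69.5 FPKM in Cnot4-null PD, led by Lyz2, against 82.1 and 82.6 in WT PD, where Fcgr3 led. They summed to at most 22.3 in the LZ libraries. Fcgr3 was at 79.7 and 79.4 FPKM in WT PD against 20.8 and 11.4 in Cnot4-null PD. The WT PD sum was thus nearly all Fcgr3 and does not give the direction of the other macrophage markers. Of the 6 tested, 2 were called higher and 1 lower, and 0 higher under quantile normalization. Csf1r, among the 2, was above 1 FPKM only in a Cnot4-null PD library. Under quantile normalization and after rescaling, 7 and 7 Leydig, 6 and 7 myoid, 8 and 7 spermatid, 6 and 7 spermatogonial, and 2 and 3 Sertoli cell markers were called higher. Of all genes, 17.8% and 23.4% were. The part of these other cells in the differences between genotypes at PD was not tested.

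**Figure D1:**
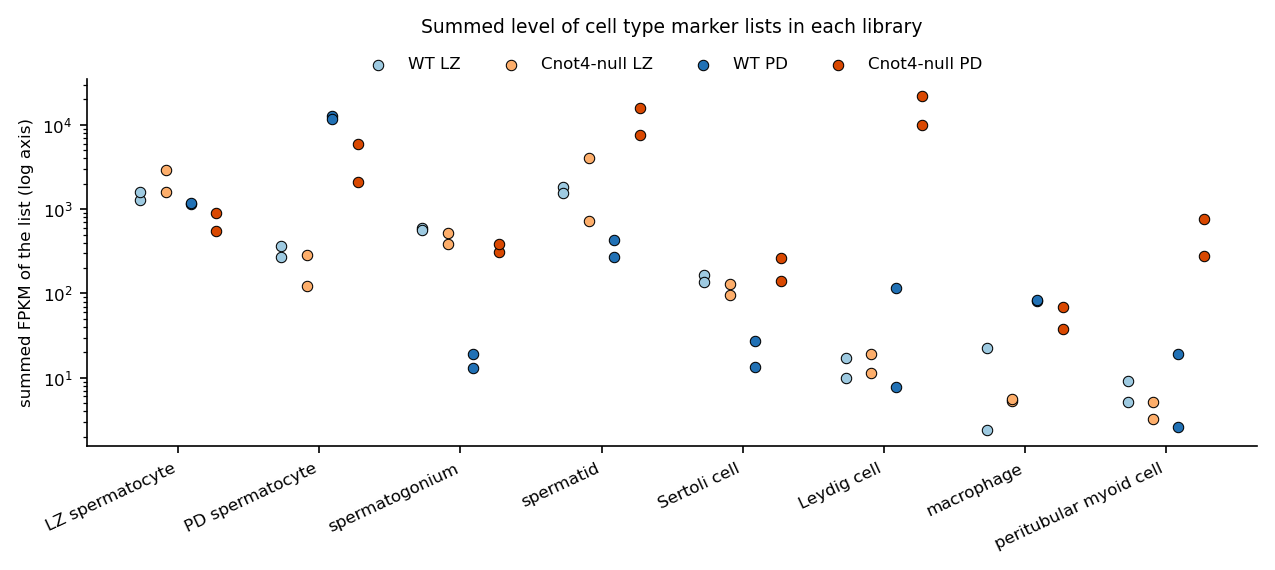
Summed FPKM of 8 marker lists (x axis) in each of the 8 libraries (points, log y axis), colored by group. Leydig cell markers reached 10030 and 22230 FPKM in Cnot4-null PD, and PD spermatocyte markers were highest in WT PD, at 12600 and 11700.

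The median change of all genes differed between the comparisons. On the log2(FPKM + 1) scale used throughout, the median change of the 15899 genes was -0.32 from LZ to PD in WT, 0.19 from LZ to PD in Cnot4-null, 0.00 between genotypes at LZ, 0.66 between genotypes at PD and 0.64 for the interaction. Changes are therefore also given relative to these medians, and a log2 fold change on this scale understates the change of genes of low FPKM. With 2 libraries in a group, an exact permutation test of 1 value cannot give a two-sided p below 0.333, so tests rest on limma, which pools the spread over genes and groups. A gene is said to be called at an adjusted p under 0.05.

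The genes of the ligation complex lie on 3 chromosomes. In GENCODE vM1 (NCBIM37, the assembly of mm9, on which the values were computed), Xrcc4 lies on the minus strand at chr13:89913632-90229213 with 4 transcripts of up to 9 exons, Lig4 on the minus strand at chr8:9970020-9977686 with 2 transcripts of up to 2 exons, and Nhej1 on the minus strand at chr1:75013713-75093213 with 2 transcripts of up to 5 exons. Promoters are shown for Xrcc4 and Lig4, which rose from LZ to PD in WT, and for Xrcc6 and Dclre1c, which fell. The sequences are from RefSeq on GRCm38.p6, from 250 bases before to 50 bases after a start, on the strand of the gene. The table held promoters for 7 of the 8 genes, all but Prkdc, and Lig4 had 2 starts. Capitals mark matches on either strand to 4 motifs, CCAAT (bound by NF-Y), GGGCGG (the GC box), TGACGTCA (the cAMP response element) and CAGTTG (a MYB core). None of these motifs contains another.
Xrcc4, chr13:90089559-90089858, minus strand: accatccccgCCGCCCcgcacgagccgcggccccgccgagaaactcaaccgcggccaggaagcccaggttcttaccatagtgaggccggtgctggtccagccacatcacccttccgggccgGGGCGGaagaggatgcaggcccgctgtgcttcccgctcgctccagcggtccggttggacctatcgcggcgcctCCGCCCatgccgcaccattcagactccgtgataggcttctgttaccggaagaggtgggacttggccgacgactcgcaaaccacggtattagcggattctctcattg
Lig4 start 1, chr8:9977631-9977930, minus strand: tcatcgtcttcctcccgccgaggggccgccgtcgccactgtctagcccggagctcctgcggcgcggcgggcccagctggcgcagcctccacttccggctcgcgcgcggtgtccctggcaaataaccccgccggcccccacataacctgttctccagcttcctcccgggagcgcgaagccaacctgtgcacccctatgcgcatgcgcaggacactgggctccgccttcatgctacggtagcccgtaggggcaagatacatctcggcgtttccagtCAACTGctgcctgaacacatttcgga
Lig4 start 2, chr8:9976262-9976561, minus strand: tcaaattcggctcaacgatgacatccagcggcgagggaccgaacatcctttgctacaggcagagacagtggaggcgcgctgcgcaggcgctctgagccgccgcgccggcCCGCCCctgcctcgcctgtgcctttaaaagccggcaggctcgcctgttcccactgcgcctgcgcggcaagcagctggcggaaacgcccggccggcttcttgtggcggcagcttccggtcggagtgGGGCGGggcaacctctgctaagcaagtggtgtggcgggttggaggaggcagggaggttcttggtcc
Xrcc6, chr15:82016119-82016418, plus strand: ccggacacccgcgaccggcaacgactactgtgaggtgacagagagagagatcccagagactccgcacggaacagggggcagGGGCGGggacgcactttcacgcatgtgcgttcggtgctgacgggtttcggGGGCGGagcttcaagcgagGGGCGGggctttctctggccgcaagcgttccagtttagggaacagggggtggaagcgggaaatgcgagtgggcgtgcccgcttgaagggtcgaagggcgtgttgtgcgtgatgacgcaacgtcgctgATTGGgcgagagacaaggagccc
Dclre1c, chr2:3423881-3424180, plus strand: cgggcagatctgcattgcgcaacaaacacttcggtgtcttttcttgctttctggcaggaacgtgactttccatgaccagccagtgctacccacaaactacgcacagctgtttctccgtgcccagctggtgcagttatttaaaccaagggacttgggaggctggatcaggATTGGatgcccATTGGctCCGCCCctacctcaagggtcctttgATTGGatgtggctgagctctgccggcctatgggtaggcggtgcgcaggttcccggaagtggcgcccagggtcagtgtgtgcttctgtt

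GGGCGG was found in 6 of the 8 promoters of the 7 genes, in each gene but Xrcc5, against 35.7% of 32851 promoters of the same length. The motif holds only G and C, and the GC content was 65.7% in Xrcc4, 66.3% and 67.3% in Lig4 and 64.3% in Xrcc6 against a median of 52.7%. It was 57.3% in Trp53bp1, 56.3% in Dclre1c, 50.7% in Nhej1, which held the motif, and 48.0% in Xrcc5, which did not. CCAAT was found in Xrcc6, Xrcc5 and Dclre1c, 3 of the 8 promoters, against 37.4% of all promoters, and Dclre1c held 3 matches at 81, 70 and 38 bases before its start. CAGTTG was found in 1 gene, Lig4, beginning 24 bases after the first listed start, against 13.7% of all promoters. TGACGTCA was found in 0 of 7 genes and 1.79% of all promoters. The Xrcc4 promoter held 3 GGGCGG matches and none of the other motifs, so that it shared GGGCGG with the second Lig4 start, which held 2 matches, and no motif with the first. Over the 150 bases nearest the start, 2 genes held CCAAT, 6 held GGGCGG and 1 held CAGTTG, against 23.4%, 28.8% and 7.22% of all promoters. These matches describe letters, not binding.

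Xrcc4, the scaffold of ligase IV, was at 7.76 and 15.7 FPKM (LZ) and 139.9 and 148 (PD) in WT, against 18.1 and 12.5 (LZ) and 47.1 and 23.9 (PD) in Cnot4-null. The WT PD libraries were far above the other 6, and the Cnot4-null PD libraries lay between them and the LZ libraries. The WT mean was 12.3-fold higher at PD than at LZ (143.8 ± 5.53 against 11.7 ± 5.59 FPKM, SD, n = 2), a log2 fold change of 3.58, which is the value the gene was chosen for. In WT, Xrcc4 had rank 5 of the 8 genes at LZ and rank 1 at PD. Between genotypes at PD, where the same WT PD libraries are 1 side of the comparison, the log2 fold change was -2.06, or -2.73 relative to the median gene, which describes the values and was not tested. From LZ to PD in Cnot4-null, the SE and adjusted p come from the fit of all 4 groups, so WT libraries enter them. The log2 fold change itself uses no WT library. It was 1.11 ± 0.41 (SE) and missed the threshold (adjusted p = 0.0604, and 0.122 in a fit of the Cnot4-null libraries alone). It was 1.59 (adjusted p = 0.0387) without Cnot4-null PD replicate 2, 0.64 (adjusted p = 0.292) without replicate 1, and 0.54 (adjusted p = 0.283) after rescaling to a common median.

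Lig4, the ligase itself, was at 5.62 and 3.30 FPKM (LZ) and 16.1 and 14.5 (PD) in WT, against 5.66 and 3.15 (LZ) and 8.56 and 5.80 (PD) in Cnot4-null. Both WT PD values were above all others. Lig4 rose 3.42-fold from LZ to PD in WT (log2 fold change 1.61 ± 0.35, adjusted p = 0.00547). It was lower in Cnot4-null than in WT at PD (log2 fold change -1.01 ± 0.35, adjusted p = 0.0429; -1.67 relative to the median gene). It was also called under quantile normalization (-1.91, adjusted p = 0.00692) and after rescaling to a common median (-2.32, adjusted p = 0.00105). Without rescaling, this call was lost without WT PD replicate 1 or 2 (adjusted p = 0.186 and 0.141) and without Cnot4-null PD replicate 1 or 2 (adjusted p = 0.0525 and 0.194). It was also lost with a pseudocount of 0.1 (adjusted p = 0.0576) and with no filter on low values (adjusted p = 0.0938).

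Nhej1, which encodes XLF, was at 25.2 and 23.3 FPKM (LZ) and 35.2 and 24.5 (PD) in WT, against 42.4 and 22.5 (LZ) and 34.0 and 18.3 (PD) in Cnot4-null. The groups overlapped, and duplicates lay farther apart than the group means did, except in WT LZ, where they lay close together. Nhej1 was not called in any contrast, with log2 fold changes between -0.56 and 0.34. After rescaling to a common median, Nhej1 was higher at WT PD than at WT LZ (1.13, adjusted p = 0.0332) and lower in Cnot4-null than in WT at PD (-1.61, adjusted p = 0.00751), and the interaction was called (-1.99, adjusted p = 0.0201). The ligation complex thus held a gene that differed 12.3-fold between stages in WT, 1 that changed 3.42-fold and 1 that was not called.

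**Figure D2:**
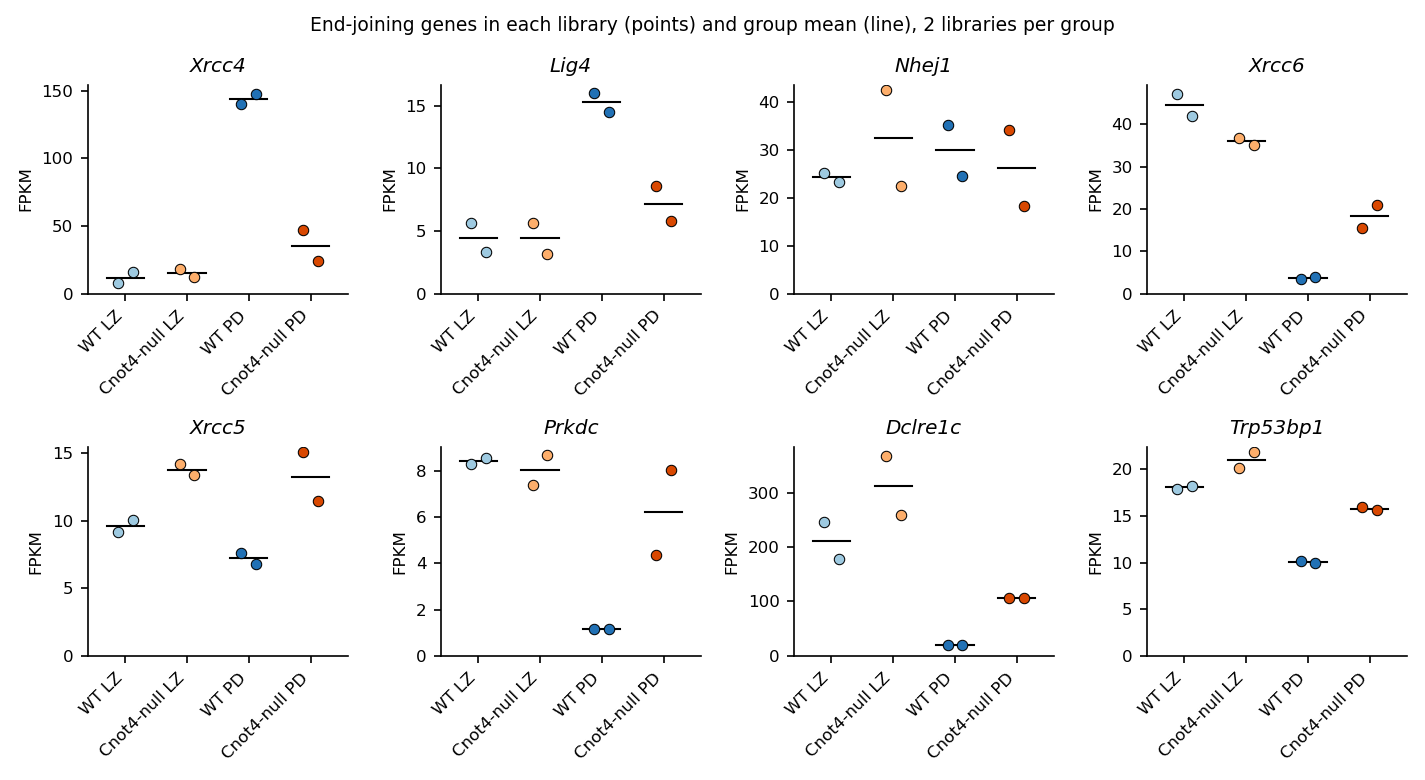
FPKM (y axis) of the 8 end-joining genes, 1 panel each, in the 4 groups (x axis), with a point for each library and a line at the group mean. Xrcc4 and Lig4 were highest in WT PD, Xrcc6, Xrcc5, Prkdc, Dclre1c and Trp53bp1 were lowest there, and Nhej1 overlapped between groups.

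The Ku subunits differed from each other. Xrcc6 lies on the plus strand at chr15:81818265-81870515 and Xrcc5 on the plus strand at chr1:72353995-72441526 (NCBIM37). Xrcc6 was at 47.2 and 42.0 FPKM (LZ) and 3.49 and 3.81 (PD) in WT, against 36.8 and 35.1 (LZ) and 15.5 and 21.0 (PD) in Cnot4-null, so that no 2 groups overlapped. It fell 12.2-fold from LZ to PD in WT (log2 fold change -3.29 ± 0.21, adjusted p = 3.16e-05). At PD it was 5.0-fold higher in Cnot4-null than in WT (log2 fold change 2.04 ± 0.21, adjusted p = 0.000455), and 1.37 relative to the median gene. From LZ to PD in Cnot4-null it fell by 0.95 ± 0.21 on the log2 scale (adjusted p = 0.0101), a call lost without Cnot4-null LZ replicate 1 (adjusted p = 0.055) and in a fit of the Cnot4-null libraries alone (adjusted p = 0.0617).

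Xrcc5 was at 9.13 and 10.01 FPKM (LZ) and 7.62 and 6.78 (PD) in WT, against 14.2 and 13.4 (LZ) and 15.0 and 11.4 (PD) in Cnot4-null. The WT stages lay close together, with a log2 fold change of -0.37 ± 0.22 that missed the threshold (adjusted p = 0.204). At PD, Xrcc5 was called higher in Cnot4-null (log2 fold change 0.78 ± 0.22, adjusted p = 0.022), but only by 0.12 relative to the median gene. The call was lost without WT PD replicate 1 or 2 (adjusted p = 0.0882 and 0.133), and the direction turned under quantile normalization (-0.07) and rescaling to the same median (-0.52).

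A ratio of both Ku genes within a library carries no scaling between libraries. The FPKM of Xrcc6 over that of Xrcc5 was 5.17 and 4.20 (LZ) and 0.458 and 0.562 (PD) in WT, against 2.60 and 2.62 (LZ) and 1.03 and 1.84 (PD) in Cnot4-null. Xrcc6 was therefore the more abundant mRNA of the pair at LZ and in Cnot4-null PD, and Xrcc5 in WT PD, with no overlap between any groups. The smallest p an exact permutation test could give, 0.333, was reached for each pair of groups compared.

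Xrcc4 was set against each partner in the same way. Its ratio to Lig4 was 1.38 and 4.74 (LZ) and 8.71 and 10.2 (PD) in WT, against 3.19 and 3.97 (LZ) and 5.50 and 4.12 (PD) in Cnot4-null. At PD the mean log2 ratio in Cnot4-null minus that in WT was -0.99, a description since it uses the WT PD values of Xrcc4, and the LZ libraries of both genotypes overlapped. The ratio of Xrcc4 to Xrcc6 was 0.164 and 0.373 (LZ) and 40.1 and 38.8 (PD) in WT, against 0.492 and 0.356 (LZ) and 3.04 and 1.14 (PD) in Cnot4-null. The ratio of Xrcc4 to Prkdc ran from 0.935 in a WT LZ library to 126 in a WT PD library. For all 7 partners the WT PD ratios were above the Cnot4-null PD ratios, which were above the Cnot4-null LZ ratios. All 7 ratios hold the same Xrcc4 values, and its WT values chose the gene. The order against WT PD is therefore a description that counts 1 gene 7 times.

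**Figure D3:**
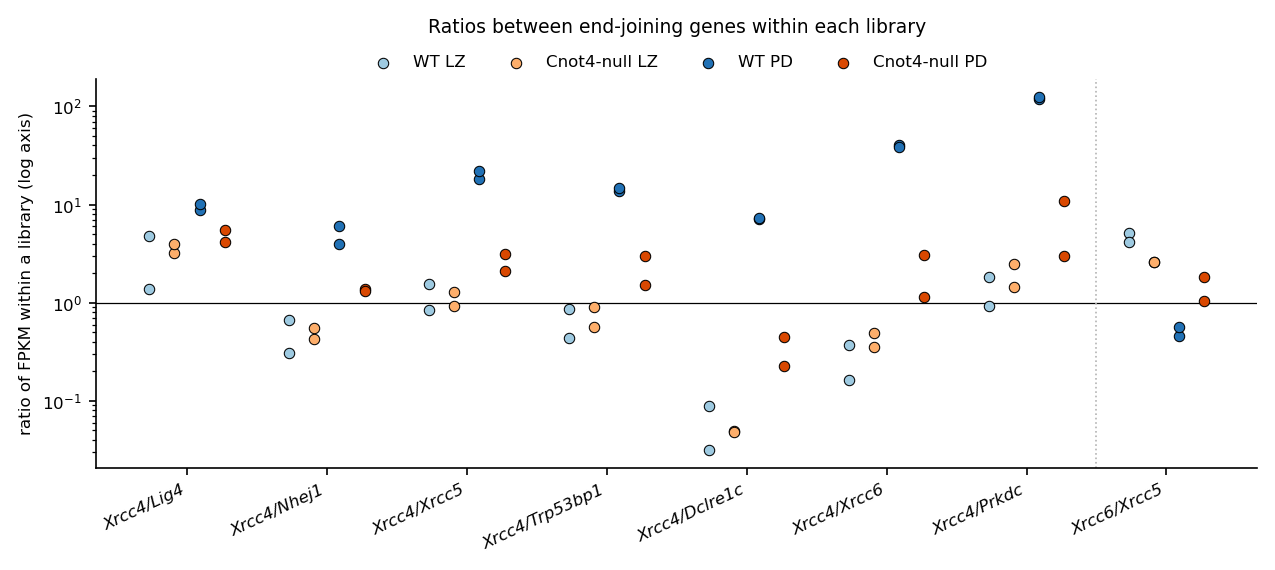
Ratio of FPKM within a library (log y axis) for Xrcc4 over each of its 7 partners and for Xrcc6 over Xrcc5 (x axis), with a point for each library, colored by group. The WT PD libraries were highest for every Xrcc4 ratio, at 40.1 and 38.8 over Xrcc6, and lowest for Xrcc6 over Xrcc5, at 0.458 and 0.562. Every Xrcc4 ratio holds the WT values that chose the gene.

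The kinase and nuclease of end processing fell in WT. Prkdc lies on the plus strand at chr16:15637959-15842332, with 86 exons, and Dclre1c on the plus strand at chr2:3341403-3381402 (NCBIM37). Prkdc was at 8.30 and 8.53 FPKM (LZ) and 1.17 and 1.18 (PD) in WT, against 7.36 and 8.66 (LZ) and 4.37 and 8.03 (PD) in Cnot4-null. The WT PD libraries were the lowest, Cnot4-null PD replicate 1 lay between them and the LZ libraries, and replicate 2 was within the range of the LZ libraries. Prkdc fell by 2.12 ± 0.30 on the log2 scale from LZ to PD in WT (adjusted p = 0.000704) and was higher in Cnot4-null than in WT at PD (1.68 ± 0.30, adjusted p = 0.00372; 1.02 relative to the median gene). The call at PD was lost under quantile normalization (0.34, adjusted p = 0.434) and rescaling to the same median (0.68, adjusted p = 0.0774). From LZ to PD in Cnot4-null it was not called (-0.37 ± 0.30, adjusted p = 0.339), but without Cnot4-null PD replicate 2 it was (-0.74, adjusted p = 0.0331), and without replicate 1 the value was 0.01. It was also called under quantile normalization (-0.97, adjusted p = 0.0427) and rescaling (-0.86, adjusted p = 0.0402).

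Dclre1c was the most abundant of the 8 mRNAs at LZ in both genotypes. It was at 246.5 and 178 FPKM (LZ) and 19.4 and 20.2 (PD) in WT, against 367 and 259 (LZ) and 105.8 and 105.4 (PD) in Cnot4-null, with no overlap between the stages or between the genotypes at PD. It fell 10.7-fold from LZ to PD in WT (log2 fold change -3.34 ± 0.24, adjusted p = 4.25e-05) and 2.96-fold in Cnot4-null (-1.54 ± 0.24, adjusted p = 0.00249). At PD it was 5.33-fold higher in Cnot4-null than in WT (2.36 ± 0.24, adjusted p = 0.000415; 1.69 relative to the median gene).

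Trp53bp1, on the minus strand at chr2:121019017-121097143 (NCBIM37), was at 17.9 and 18.2 FPKM (LZ) and 10.2 and 9.96 (PD) in WT, against 20.1 and 21.8 (LZ) and 15.9 and 15.6 (PD) in Cnot4-null. Duplicates lay close together in every group. It fell by 0.78 ± 0.18 on the log2 scale from LZ to PD in WT (adjusted p = 0.00802), a call lost without WT PD replicate 1 or 2 (adjusted p = 0.0515 and 0.0579) and under quantile normalization (-0.39, adjusted p = 0.144), and gone under rescaling to the same median (0.04, adjusted p = 0.891). At PD it was called higher in Cnot4-null (0.60 ± 0.18, adjusted p = 0.0295), which is -0.07 relative to the median gene. That call was lost without WT PD replicate 1 or 2 (adjusted p = 0.125 and 0.139), and the sign turned under quantile normalization (-0.07) and rescaling (-0.74, adjusted p = 0.0126).

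Across the stages in WT, 5 of the 7 partners of Xrcc4 were called, 1 higher and 4 lower, against 57.8% of all 15899 genes, of which 21.6% were called higher and 36.2% lower. A share of 71.4% over 7 genes is near that background. The median log2 fold change of the 7 partners was -0.78 beside -0.32 for all genes. In Cnot4-null, 2 of the 8 genes were called between stages, both lower, against 46.0% of all genes, 27.8% higher and 18.2% lower. At LZ the genotypes gave 0 called of 7 partners with limma, against 0.0943% of all genes (15), and 0 of the 7 had an unadjusted p under 0.05 in that fit, where 1013 of all genes did. Between genotypes at PD, 6 of the 7 partners were called, 5 higher and 1 lower in Cnot4-null, against 53.1% of all genes, 41.6% higher and 11.5% lower. That split became 2 higher and 1 lower under quantile normalization, and it turned after rescaling to a common median, to 2 higher and 3 lower. Of all genes, 17.8% and 25.6% were called higher and lower under quantile normalization and 23.4% and 40.1% after rescaling. The split of all genes thus turned under both scalings, and that of the partners only after rescaling. Their median log2 fold change was 0.78 beside 0.66 for all genes. Without WT PD replicate 1 or replicate 2, the calls of Lig4, Xrcc5 and Trp53bp1 were lost, as given above. The range of calls among all genes over the settings is given below.

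The split of all called genes depended on the scaling. Of the genes called between genotypes at PD, 78.3% were higher in Cnot4-null, but 41.0% under quantile normalization and 36.9% when libraries were rescaled to the same median. In WT, 37.4% of called genes were higher at PD than at LZ, and 46.1% and 54.7% under those scalings. In Cnot4-null the share was 60.5%, and 37.4% and 39.1% under them. Among the 7 partners, Xrcc6 and Dclre1c were called higher in Cnot4-null at PD under each of these scalings and without each library in turn. Gapdh, often used as a reference, was at 211 and 237 FPKM (LZ) and 9.22 and 8.22 (PD) in WT, against 178 and 196 (LZ) and 89.3 and 120.1 (PD) in Cnot4-null. Like Xrcc6 it was lower in WT PD than in the other groups under all of these scalings.

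**Figure D4:**
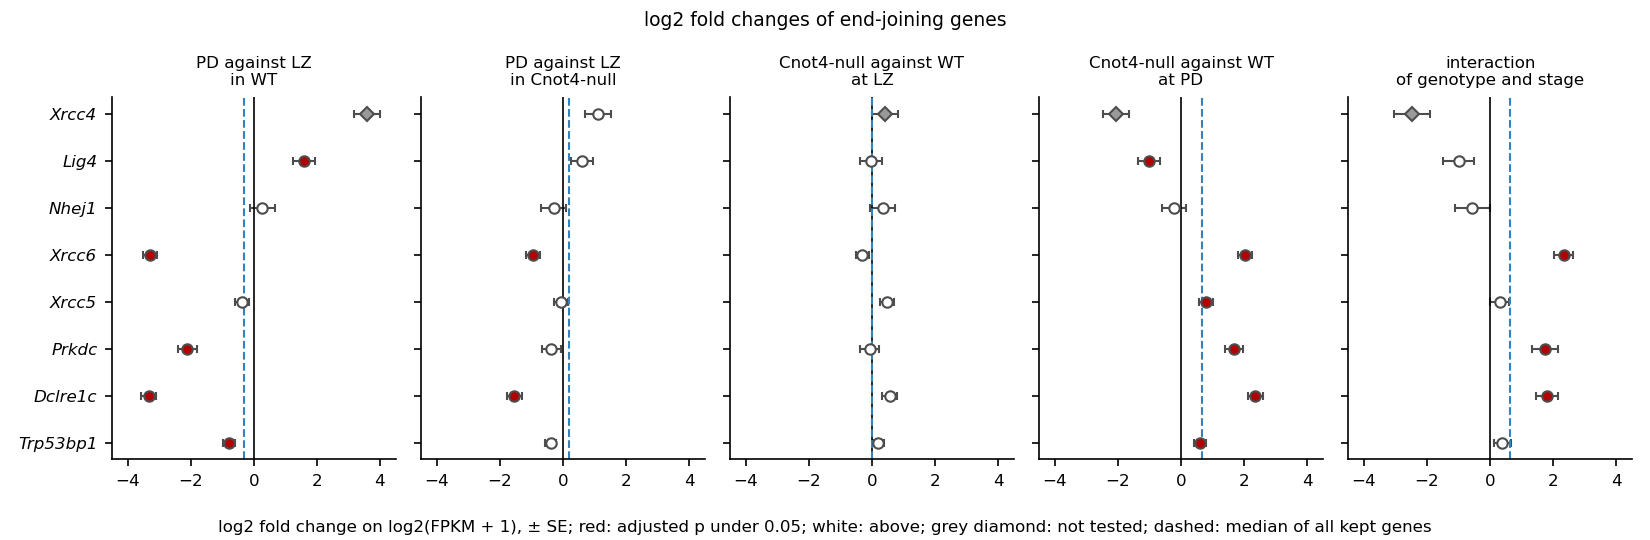
log2 fold change (x axis, ± SE, on log2(FPKM + 1)) of the 8 end-joining genes (y axis) in 5 contrasts, red where called, white where not, and a gray diamond for the Xrcc4 values that were not tested. The dashed line is the median of all 15899 genes, 0.66 between genotypes at PD, near which Xrcc5 and Trp53bp1 lay.

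The effect of genotype differed between stages for 3 of the 7 partners by the interaction term, 3 higher and 0 lower, against 30.0% of all genes, 26.0% higher and 3.97% lower. The 3 were Xrcc6, Prkdc and Dclre1c. Xrcc6 kept this call without each library in turn and under both other scalings. Prkdc lost it without any 1 of the WT or the Cnot4-null LZ libraries (adjusted p from 0.062 to 0.096), under quantile normalization (adjusted p = 0.575) and after rescaling to a common median (adjusted p = 0.196). Dclre1c lost it without WT PD replicate 1 (adjusted p = 0.0519) or replicate 2 (adjusted p = 0.05, just above the threshold) and after rescaling (0.36, adjusted p = 0.383). Of all genes called for the interaction, 86.8% were positive, but 44.1% under quantile normalization and 29.8% under rescaling to the same median. For Lig4, whose genotype difference was called at PD and not at LZ, the interaction was not called (-0.99 ± 0.49, adjusted p = 0.161), nor was it for Xrcc5 (0.30 ± 0.31, adjusted p = 0.474) or Trp53bp1 (0.39 ± 0.26, adjusted p = 0.274). After rescaling these were called with a negative sign, Lig4 at -2.33 (adjusted p = 0.00824), Xrcc5 at -1.05 (adjusted p = 0.0324) and Trp53bp1 at -0.98 (adjusted p = 0.0236), and Lig4 was also called under quantile normalization (-1.94, adjusted p = 0.0385). The partners called for the interaction were then 2 higher and 1 lower under quantile normalization and 1 higher and 4 lower after rescaling.

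The place of each Cnot4-null PD library between the WT groups was computed on the FPKM scale, with the WT PD mean as 0% and the WT LZ mean as 100%. Replicates 1 and 2 lay at 73.2% and 90.8% for Xrcc4, 62.0% and 87.6% for Lig4, 29.0% and 42.4% for Xrcc6, 44.1% and 94.7% for Prkdc, 44.7% and 44.5% for Dclre1c, and 72.9% and 69.4% for Trp53bp1. Replicates lay far apart for Prkdc, at 44.1% and 94.7%, and close together for Dclre1c, at 44.7% and 44.5%. The place of Xrcc4 uses the WT values it was chosen for. What sets these places was not tested. Xrcc5 lay beyond the LZ mean, at 331% and 178%, and Nhej1 gave no stable value because its WT means were within the spread of their libraries. These values share the WT libraries with the fold changes above and add no test.

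Genes that overlap or adjoin the end-joining genes were read beside them, since the strand used in counting is not given in the sources used here and overlapping transcripts on opposite strands cannot then be told apart. Tmem167 overlaps the start of Xrcc4 on the opposite strand and shares 112 exonic bases with it, 2.66% of the exonic bases of Xrcc4. It was at 11.3 and 12.7 FPKM in WT LZ and 5.94 and 6.15 in WT PD, lower at PD (log2 fold change -0.88 ± 0.22, adjusted p = 0.0109), where Xrcc4 was higher. Lig4 and Abhd13 start 20 bases apart on opposite strands, and Abhd13 also fell in WT (-1.14 ± 0.24, adjusted p = 0.00459) while Lig4 rose. Abhd13 and Tmem167 were not called between genotypes at PD (0.38 ± 0.24, adjusted p = 0.205, and -0.17 ± 0.22, adjusted p = 0.535).

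Dclre1c lies between a pair of genes on the opposite strand. Suv39h2, a histone methyltransferase gene, overlaps its 3′ end with 357 shared exonic bases, 3.83% of those of Dclre1c, and was at 33.1 and 29.6 FPKM (LZ) and 1.24 and 0.925 (PD) in WT, against 12.3 and 9.13 in Cnot4-null PD. It moved in the same directions as Dclre1c, falling by 3.96 ± 0.24 on the log2 scale in WT (adjusted p = 2.75e-05) and being higher in Cnot4-null at PD by 2.49 ± 0.24 (adjusted p = 0.000353). Meig1, which starts 1482 bases from Dclre1c in the other direction, went from 248 and 431 FPKM in WT LZ to 13090 and 13950 in WT PD (log2 fold change 5.37 ± 0.62, adjusted p = 0.000268).

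Prkdc and Mcm4, which encodes a subunit of the replicative helicase, start 465 bases apart on opposite strands. Mcm4 went from 36.6 and 43.4 FPKM in WT LZ to 0.530 and 0.866 in WT PD, and was at 9.40 and 12.0 in Cnot4-null PD (2.78 ± 0.23 against WT, adjusted p = 0.00024). Pppde2 overlaps Xrcc6 on the opposite strand with 344 shared exonic bases, 7.69% of those of Xrcc6. It was called higher at PD than at LZ in WT (1.29 ± 0.47, adjusted p = 0.0472), where Xrcc6 fell, and was not called between genotypes at PD (-0.01 ± 0.47, adjusted p = 0.995). Tubgcp4 overlaps the 3′ end of Trp53bp1 with 2130 shared exonic bases, 15.0% of those of Trp53bp1, and was at 1.83 to 6.32 FPKM over the 8 libraries with no call in WT between stages (adjusted p = 0.208). Of these pairs on opposite strands with starts close together, Prkdc and Mcm4 fell together in WT, while Xrcc4 with Tmem167, Lig4 with Abhd13 and Dclre1c with Meig1 went in opposite directions.

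Other repair genes gave the setting for these values. Of 11 accessory factors of end joining, 10 passed the filter, Dntt being the exception. In WT, 2 were called higher and 4 lower at PD than at LZ, where 21.6% and 36.2% of all genes were, and this split became 2 and 1 under quantile normalization and 3 and 1 after rescaling. In Cnot4-null at PD, 4 were called higher than in WT and 1 lower, beside 41.6% and 11.5% of all genes. Under quantile normalization and rescaling to the same median 0 were called higher. There 4 and 5 were called lower, beside 25.6% and 40.1% of all genes. Aplf, a scaffold bound by Ku, was at 6.97 and 7.71 FPKM in WT PD against 14.3 and 15.7 in Cnot4-null PD. Paxx, listed under an older symbol, was at 5.65 and 4.87 against 11.1 and 9.32. Cyren, an inhibitor of end joining also listed under an older symbol, was at 0.958 and 0.466 against 2.42 and 3.81. Wrn, a helicase that binds Ku, was at 11.4 and 12.4 against 7.10 and 5.48, and was called lower (log2 fold change -0.83 ± 0.26, adjusted p = 0.0298).

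In the 53BP1 pathway, 11 of 12 genes were tested, and 4 were called higher and 4 lower in Cnot4-null at PD, where 41.6% and 11.5% of all genes were. Under quantile normalization 0 were called higher and 4 lower, beside 17.8% and 25.6% of all genes. After rescaling it was 1 higher and 6 lower, beside 23.4% and 40.1%. The shieldin subunit gene Mad2l2, which acts downstream of 53BP1, was at 60.4 and 75.5 FPKM (LZ) and 638 and 548 (PD) in WT, against 45.3 and 55.7 (LZ) and 291 and 142 (PD) in Cnot4-null (-1.54 ± 0.34 between genotypes at PD, adjusted p = 0.00878). Atm, the kinase that starts the response to a break, was at 0.730 and 0.628 FPKM in WT PD against 4.33 and 6.51 in Cnot4-null PD (1.91 ± 0.30, adjusted p = 0.00217). Rnf8 and Shld1 were also called higher, and Mdc1 and Nudt16l1 lower.

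For alternative end joining, 2 of 6 genes were called higher at PD in Cnot4-null and 1 lower, beside 41.6% and 11.5% of all genes. The counts became 1 and 2 under quantile normalization, beside 17.8% and 25.6% of all genes. After rescaling they were 1 and 5, beside 23.4% and 40.1%. Lig1, a ligase of that route and of replication, was at 8.15 and 9.25 FPKM in WT PD against 38.1 and 34.6 in Cnot4-null PD, and Parp1 at 30.04 and 30.14 against 46.2 and 52.3. Lig3 was at 28.1 and 28.4 against 17.7 and 14.7, and at 14.4 and 14.5 in WT LZ. The 3 DNA ligase genes therefore split in WT, Lig3 and Lig4 being highest at PD and Lig1 at LZ.

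For end resection from LZ to PD in WT, 6 of 9 were called lower and 0 higher, where 36.2% of all genes were lower, and in Cnot4-null 9 of 9 were called lower, where 18.2% of all genes were. The 6 in WT became 4 under quantile normalization and 3 after rescaling, where 30.3% and 26.9% of all genes were called lower. The 9 in Cnot4-null stayed 9 under both, where 31.4% and 32.6% of all genes were called lower. In Cnot4-null at PD, 3 of 9 were called higher, Brca1, Rad50 and Exo1, beside 41.6% of all genes. Under quantile normalization 0 were called higher and 6 lower, and after rescaling 1 higher and 5 lower. In homologous recombination, 11 of 17 genes were called lower and 2 higher from LZ to PD in WT, where 36.2% of all genes were lower, and the 11 became 7 under quantile normalization and 6 after rescaling. In Cnot4-null at PD, 6 of the 17 were called higher and 1 lower, beside 41.6% and 11.5% of all genes. Dmc1, the meiotic strand-exchange protein, was at 1.16 and 0.590 FPKM in WT PD against 8.58 and 9.22 in Cnot4-null PD. Mnd1 and Rpa2 were also called higher, and Rpa1, at 109.9 and 109.4 FPKM in WT PD against 63.2 and 32.6 in Cnot4-null PD, was called lower. The direction of these lists at PD turned with the scaling, as did that of all genes. In homologous recombination, 2 were called higher and 6 lower under quantile normalization, beside 17.8% and 25.6% of all genes. After rescaling 1 was called higher and 9 lower, beside 23.4% and 40.1%.

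**Figure D5:**
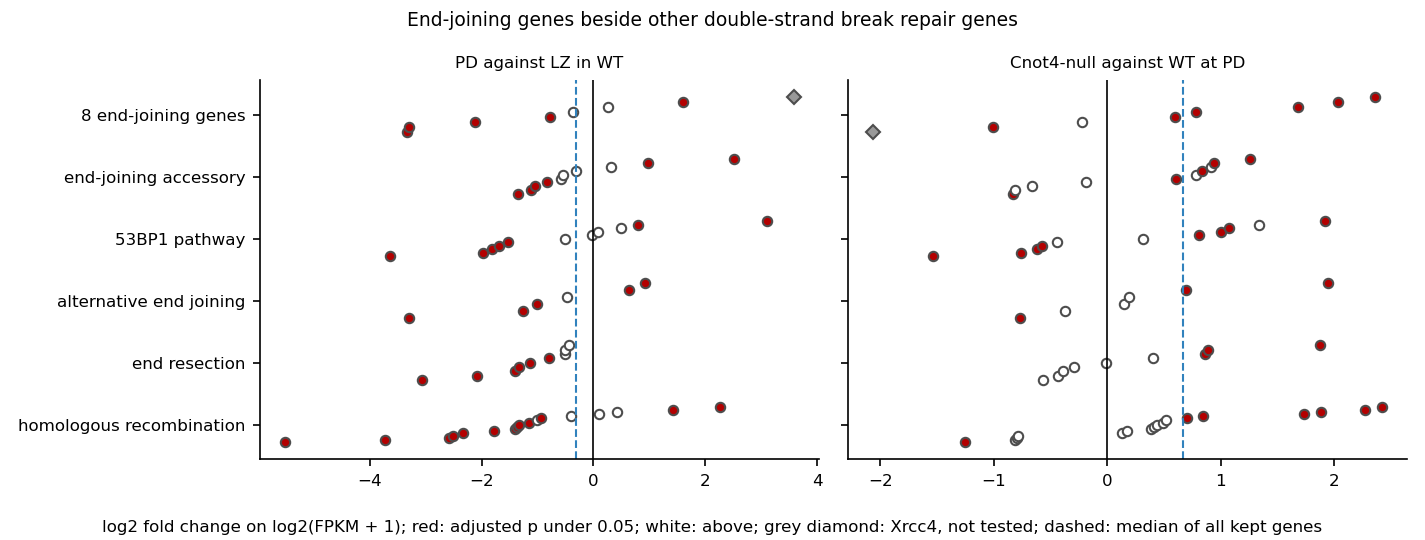
log2 fold change (x axis, on log2(FPKM + 1)) of each tested gene of 6 repair lists (y axis), from LZ to PD in WT and between genotypes at PD, red where called, white where not, and a gray diamond for Xrcc4. In WT, end resection had 6 of 9 genes called lower, and the dashed line is the median of all genes, -0.32 and 0.66.

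Genes with a pattern much like that of Xrcc4 over the 8 libraries, among 8069 with a mean of at least 5 FPKM, included Tiprl, Bcl7b, Ino80c and Ranbp9, with Pearson r from 0.994 to 0.996. Among the partners, Lig4 was the closest to Xrcc4 (r = 0.907, rank 1001) and Xrcc6 the farthest (r = -0.981, rank 7973). The genes most like Xrcc6 were Mlf2, Grb2, Gng12, Myl12a and Tmem170b, with r from 0.998 to 0.999, and Prkdc (r = 0.972, rank 1007) and Dclre1c (r = 0.970, rank 1089) were closer to Xrcc6 than its Ku partner Xrcc5 was (r = 0.613, rank 3882). These correlations span 4 groups of 2 libraries and describe the group order more than variation between single samples.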

How the data were processed

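RNA from 8 libraries of sorted spermatocytes was analysed from the FPKM values the authors deposited, 1 per gene symbol. Per the methods and the submitters' processing notes, the authors trimmed reads, mapped them to mm9 with TopHat2 2.1.1, kept unique alignments and computed FPKM with Cufflinks 2.2.1 from UCSC gene models. The methods describe Smart-Seq2 from sorted cells and the labels a TruSeq preparation of total RNA; which was used was not determined.

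Genes above 1 FPKM in at least 1 library were kept (15899 of 23235), and log2(FPKM + 1) was fitted over the 4 groups with limma 3.58.1 in R 4.3.3 (eBayes with trend), with Benjamini-Hochberg adjustment within each of 5 contrasts. The fit was tested on simulated data. Ratios were compared by two-sided exact permutation. Python 3.11.15 was used for the rest. Replicates share only a number; p-values measure the spread between these libraries. FPKM holds no read counts, so no counting error is given.

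The members and lists were chosen with earlier results of these data known. Named were the members, their neighbors, Cnot4, Gapdh, genes among those most like Xrcc4 and Xrcc6, and list genes called at PD between genotypes, at most 3 in each direction; Dntt and markers that led a list or were at 0 were named after their values were seen. Alternatives covered filters, pseudocount, scaling, variance model, samples fitted, a replicate block, a threshold of 0.01 and each library left out. Cyren, Paxx, Shld1, Shld2, Meiob and others were matched through older symbols, and Shld3 and Rhox5 were not matched.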

Additional observations from a re-analysis of the deposited data

Results flagged for a closer look

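The difference between Cnot4-null and WT was not the same at PD as at LZ for 3 of the 7 partners of Xrcc4, by the interaction term of the limma fit, which called 30.0% of all genes, 26.0% higher. For Xrcc6 the log2 fold change at PD minus that at LZ was 2.34 ± 0.30 (adjusted p = 0.00279). The call held without each library in turn, under quantile normalization (1.52, adjusted p = 0.0268) and after rescaling to a common median (1.04, adjusted p = 0.0246). For Prkdc it was 1.75 ± 0.42 (adjusted p = 0.0222), and the call was lost without any 1 of the WT or the Cnot4-null LZ libraries, at adjusted p from 0.062 to 0.096, under quantile normalization (0.38, adjusted p = 0.575) and after rescaling (0.71, adjusted p = 0.196). For Dclre1c it was 1.80 ± 0.34 (adjusted p = 0.00979), and the call was lost without WT PD replicate 1 (adjusted p = 0.0519) or replicate 2 (adjusted p = 0.05, just above the threshold) and after rescaling (0.36, adjusted p = 0.383), but not under quantile normalization (1.67, adjusted p = 0.0198).

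All 3 values rest on the Cnot4-null PD libraries, in which Leydig cell markers summed to 10030 and 22230 FPKM and spermatid markers to 16030 and 7551. The part of these markers in the 3 values was not tested.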

How the results depend on the processing

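Of 702 log2 fold changes of end-joining genes recomputed under alternatives, 613 were unchanged, 30 lost a call, 13 gained one, 26 turned sign, and 20 moved by more than the spread of duplicates. Unchanged means the same direction and side of the threshold, or, for values without a test, a move within that spread. A value relative to the median gene was counted as turned only where the main value was called. The 20 had no test: they are Xrcc4 values that use a WT group, or values relative to the median of all genes, an alternative added after the data were seen. Where a library was left out, the lone library of its group was assumed to vary like the other groups. Causes were not tested. The number of called genes among all genes tested in a setting ran from 1656 to 7929 for the interaction and from 4057 to 10100 between genotypes at PD over settings at a threshold of 0.05, and from 1 to 31 at LZ.

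Without 1 library, the number of end-joining genes called stayed or fell in WT, between genotypes at PD and for the interaction. Between stages in Cnot4-null it fell or rose with the library left out, and at LZ none was called. The range of calls among all genes is given above. Between stages in Cnot4-null, quantile normalization or rescaling to the same median gave 4 of 8 called, beside 50.1% and 53.5% of all genes. With only the libraries compared and at a threshold of 0.01, 1 and 1 of 8 were called, beside 3955 and 4286 of all genes. Between genotypes at PD, 3 of 7 were called under quantile normalization (43.5% of all genes) and 3 at 0.01, and for the interaction 5 of 7 after rescaling (46.0% of all genes). The Xrcc4 value from LZ to PD in WT was 4.46 after rescaling to the same median and 3.12 to 4.05 without 1 library. The mean log2 ratio of Xrcc4 to Lig4 at PD, Cnot4-null minus WT, was -1.19 to -0.78 without 1 library.

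Some signs turned. In WT between stages, Xrcc5 was 0.15 under quantile normalization and 0.44 under rescaling, and Trp53bp1 0.041 under rescaling. In Cnot4-null between stages, Lig4 was -0.018 under quantile normalization, Nhej1 0.15 without Cnot4-null LZ replicate 1 and 0.14 without Cnot4-null PD replicate 2, Xrcc5 0.12 without Cnot4-null PD replicate 2 and -0.25 without replicate 1, and Prkdc 0.007 without Cnot4-null PD replicate 1. Between genotypes at LZ, Xrcc4 was -0.055 without WT LZ replicate 1 and 0.87 without replicate 2. Lig4 was 0.021 under quantile normalization, 0.009 under rescaling, 0.29 without WT LZ replicate 1, and 0.32 without Cnot4-null LZ replicate 2 but -0.36 without replicate 1. Without Cnot4-null LZ replicate 1, Nhej1 was -0.105 and Prkdc 0.038, and without replicate 2 they were 0.78 and -0.17. Between genotypes at PD, Nhej1 was 0.03 without WT PD replicate 1 and 0.21 without Cnot4-null PD replicate 2 but -0.66 without replicate 1. Under quantile normalization and rescaling, Xrcc5 was -0.068 and -0.52 and Trp53bp1 -0.072 and -0.74, and Trp53bp1 was -0.065 relative to the median gene. For the interaction, Xrcc5 was -0.58 and -1.05 and Trp53bp1 -0.30 and -0.98 under quantile normalization and rescaling. Relative to the median gene they were -0.34 and -0.25, which were not counted as turned.

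With the replicate block, the called genes numbered 5 in WT, 2 in Cnot4-null between stages, 0 at LZ, 6 at PD between genotypes and 3 for the interaction, as without it. Deviations of same-numbered libraries had correlations from -0.0651 to 0.194 between groups, and no source states what a replicate number shares.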

Other observations

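The 3 DNA ligase genes can be read beside each other in WT. At PD, Lig3 was at 28.1 and 28.4 FPKM, Lig4 at 16.1 and 14.5, and Lig1 at 8.15 and 9.25, whereas at LZ Lig1 was at 107.3 and 81.9, Lig3 at 14.4 and 14.5, and Lig4 at 5.62 and 3.30. The summed FPKM of the 8 end-joining genes was 368 and 299 (LZ) and 233 and 229 (PD) in WT, against 512 and 376 (LZ) and 246 and 209 (PD) in Cnot4-null, with Dclre1c the most abundant at LZ and in Cnot4-null PD and Xrcc4 in WT PD. The sums of the genotypes overlapped at PD.

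mRNA levels do not give protein levels, and each group had 2 libraries. The Cnot4-null PD libraries carried markers of Leydig, myoid, spermatid and spermatogonial cells, and some Sertoli cell markers. A change in the sorted cells and a change within PD spermatocytes therefore cannot be told apart at PD. The cells had been sorted as PD spermatocytes by Hoechst and propidium iodide fluorescence. The paper reports that SYCP3 and pH2AX immunofluorescence bore out the identity and purity of the sorted germ cells.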
